A study of Homo sapiens with 4 samples.

Results

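The genes described here are 10 genes that encode the building blocks of the cytoskeleton and of the nuclear lamina: the actins ACTB and ACTG1, the alpha tubulins TUBA1A, TUBA1B and TUBA1C, the beta tubulins TUBB, TUBB4B and TUBB6, and the intermediate filament genes VIM and LMNA. They were found by gene symbol in a RIP-seq table of transcripts, and every listed transcript of each gene was kept. This gave 86 of the 75165 listed transcripts and 10 of the 20298 listed genes. RIP-seq sequences the RNA that is recovered with a protein by an antibody, beside the RNA of the starting lysate. All 4 libraries came from MDA-MB-231, a triple negative breast cancer cell line, transduced with a lentivirus for 3x flag-YTHDC1 and selected with puromycin. YTHDC1 is a nuclear reader of the RNA modification N6-methyladenosine. RNA from UV-crosslinked, sonicated nuclei was taken with anti-flag antibody in 2 IP-YTHDC1 libraries and directly from the nuclear lysate in 2 input libraries. Ribosomal RNA was depleted before the libraries were made. IgG control libraries were not analysed here. The inputs carry the overexpressed protein too, so the endogenous state of the cells cannot be told apart from that of overexpression.

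The one measurement used here is the authors' mean normalized count of each transcript over IP and input libraries together. It is an estimated number of reads per library after the authors' normalization. Whether their correction for batch effects entered it is not stated in the sources used here. It was not divided by transcript length, so a longer transcript gathers more reads from as many molecules. By the labels the mean merges both groups, although the study's methods word the comparison as a knockdown, and the values below describe how reads were distributed over genes and transcripts in the pooled libraries. They do not say whether a transcript was recovered with YTHDC1. The difference between IP and input was not analysed here, because the table gives it only as the authors' own comparison. The authors kept only transcripts above a minimum of reads. A gene or transcript without a listed value is thus one without an entry after that step and not one measured at 0, and how many transcripts of the 10 genes were left out in it is unknown. No value of a single library was used, so depth per library is unknown, no value below has a replicate error, and no statistical test was run.

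Actins polymerise into the filaments that shape the cell cortex and drive migration. An alpha and a beta tubulin form the dimer from which microtubules are built. Vimentin, the product of VIM, forms the cytoplasmic intermediate filaments of mesenchymal cells, and the lamins A and C, spliced products of LMNA, line the inside of the nuclear envelope. The non-muscle actins are nearly identical in protein sequence and similar in coding sequence. Many tubulins within the alpha and the beta class are similar too, and both actins and tubulins have many pseudogenes. The authors' read assignment was made by RSEM, which divides reads that fit several transcripts by a statistical estimate. The division of counts between ACTB and ACTG1, among the tubulins, and among transcripts of a gene is therefore uncertain.

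Markers of the line were examined for presence in the pooled libraries, with no reference levels to compare them with. VIM had a gene total of 80785 mean normalized counts, the receptor tyrosine kinase gene AXL 63189 and the adhesion receptor gene CD44 14306. The hormone receptor genes ESR1 and PGR and the basal keratin genes KRT5 and KRT14 had no listed transcript, and CDH1, the epithelial cadherin, had 1 with a mean of 10.0. ERBB2, whose protein is not overexpressed in triple negative tumors, was listed with a total of 4303, and EPCAM with 78.3. Both nuclear lncRNAs examined were present, MALAT1 at 45810 and NEAT1 at 4322. YTHDC1, the overexpressed gene, had a total of 55488.

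Together the 10 genes held 512512 mean normalized counts, or 1.54% of all counts in the table. Of these, 258072 fell on the 2 actins, 125343 on the 6 tubulins and 129097 on VIM and LMNA. The median gene total was 37003 over the 10 genes and 227 over all listed genes. The median over the 86 transcripts was 232, against 44.2 over all transcripts. Both medians thus lay above those of the whole table, and the reads were concentrated in part of the transcripts. Of the 86 transcripts, 31 had a mean of at least 1000 (36.0%, against 7.23% of all listed transcripts), and these 31 held 98.3% of the counts. Another 31 had a mean below 100, and 8 of those were below 10. Means below 100 were common in the whole table too, given its median of 44.2.

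Counted by protein-coding transcripts alone, the ACTB total was 72160 in place of 157342 and the ACTG1 total 60851 in place of 100729, so that VIM, at 79045, took the first place from ACTB.

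**Figure D1:**
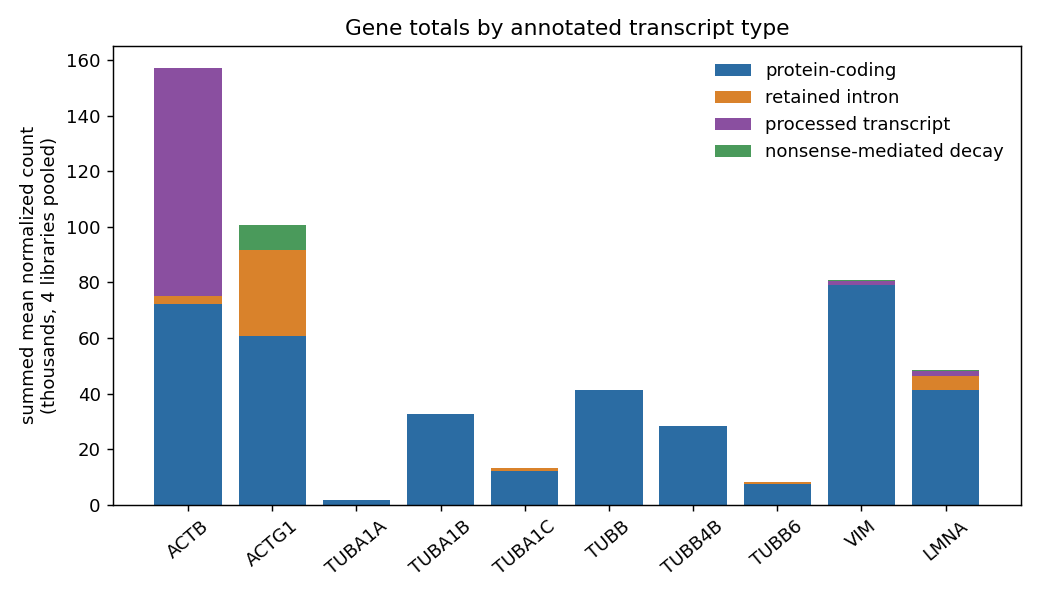
Summed mean normalized count of each gene (linear axis in units of 1000 counts, both groups pooled, no error available), stacked by annotated transcript type. ACTB is the tallest bar at 157342 counts over all transcript types and TUBA1A the lowest at 1597, while VIM has the tallest protein-coding part at 79045, and large parts that are not protein-coding appear in ACTB and ACTG1.

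By annotation, 52 of the 86 transcripts were protein-coding and 34 were of other types. The other types were 19 retained-intron transcripts, 8 processed transcripts, which have no open reading frame assigned, and 7 transcripts annotated as targets of nonsense-mediated decay, the pathway that degrades mRNA with an early stop codon. Protein-coding transcripts held 73.4% of the counts of the 10 genes. Over all protein-coding genes of the table the share was 87.6%. Over the whole table, which includes genes of other types, it was 74.2%. The difference from the protein-coding genes lay in the actins. ACTB and ACTG1 held 91.9% of the 136151 counts on transcripts of other types. Without them, protein-coding transcripts held 95.6% of the counts of the remaining 8 genes.

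ACTB (ENSG00000075624.16, chromosome 7, 5527148 to 5530601, GRCh38.p14) encodes beta-actin. Its 11 listed transcripts summed to 157342 mean normalized counts. The most abundant one was ACTB-208 (ENST00000473257.2), annotated as a processed transcript, with a mean of 82160. This was 52.2% of the gene total and 2.35 times the next transcript. The protein-coding transcripts ACTB-212, at 35006, and ACTB-204, at 22048, held 22.2% and 14.0%. Most of the reads given to the gene thus lay on a transcript without an annotated reading frame. All 6 protein-coding transcripts together held 45.9%, and the 3 retained-intron transcripts 1.91%. The remaining protein-coding transcripts ranged from ACTB-217, at 7220, down to ACTB-213, at 41.5. The lowest of all was ACTB-203, annotated for nonsense-mediated decay, at 21.2.

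ACTG1 (ENSG00000184009.12, chromosome 17, 81509971 to 81512799) encodes the other non-muscle actin, gamma-actin. It had 14 listed transcripts with a total of 100729. The retained-intron transcript ACTG1-211 (ENST00000576209.5) was the most abundant, with a mean of 30683 or 30.5% of the total. The protein-coding ACTG1-216 followed at 23078, or 22.9%. The counts of this gene were the most evenly spread of the 10. The effective number of transcripts, which is the inverse of the sum of squared shares and equals 1 when a single transcript holds everything, was 5.33 in ACTG1 and 2.89 in ACTB. ACTG1-215, at 10197 (10.1%), ACTG1-202, at 9709, ACTG1-208, at 9107, and ACTG1-205, at 8364, were protein-coding. ACTG1-204, annotated for nonsense-mediated decay, had a mean of 8893, out of 9247 counts of this type in all 10 genes. Protein-coding transcripts held 60.4% of the ACTG1 total. The other 7 transcripts had means from 7.13 to 235.

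The low protein-coding share of the actins can be set beside 4967 protein-coding genes of the table that had at least 2 listed transcripts and a total of at least 1000. Their median protein-coding share was 93.1%, with quartiles of 78.0% and 98.9%. The share was at or below that of ACTB in 7.25% of them, and at or below that of ACTG1 in 12.5%. A transcript of another type was the most abundant in 435 of these genes, or 8.76%. Of the 10 cytoskeletal genes this held for ACTB and ACTG1 alone. Transcripts of other types can share exons with protein-coding transcripts of the same gene, and the extent of this was not examined here. How much the assignment of shared reads adds to these shares was not tested. Reads of unspliced nuclear RNA were not told apart from those of retained-intron transcripts.

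**Figure D2:**
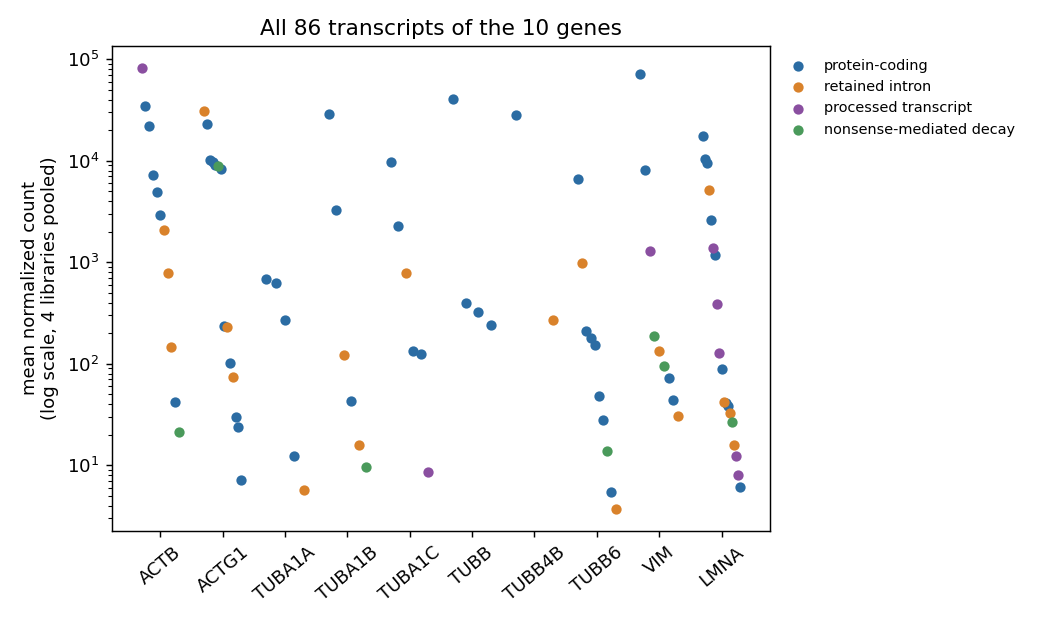
Mean normalized count of each of the 86 transcripts on a log axis, by gene, with 1 point a transcript coloured by annotated type and ordered from highest to lowest within a gene. The highest point is a processed transcript in ACTB and a retained-intron transcript in ACTG1, and a protein-coding transcript in the other 8 genes.

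Tubulin counts were concentrated in single protein-coding transcripts. In 5 of the 6 tubulin genes the most abundant transcript held between 74.3% and 99.1% of the total, the exception being TUBA1A with 43.2%. Protein-coding transcripts held 98.2% of the 125343 counts of the 6 genes.

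The alpha tubulin genes lie close together on chromosome 12, TUBA1B at 49127782 to 49131395, TUBA1A at 49184795 to 49189080 and TUBA1C at 49227926 to 49274600. TUBA1B (ENSG00000123416.15) had 6 transcripts and a total of 32660. TUBA1B-202 had a mean of 29214, or 89.4%, and TUBA1B-206 a mean of 3255, or 9.97%. The other 4 transcripts of TUBA1B ranged from 9.53 to 123, so that the gene was close to a single-transcript gene. TUBA1C (ENSG00000167553.15) had a total of 13024 in 6 transcripts. TUBA1C-202 held 74.3% of it, at 9679, and TUBA1C-210 held 17.6%, at 2294. The retained-intron transcript TUBA1C-203 reached 784, or 6.02%, the highest share of this type among the alpha tubulins. TUBA1A (ENSG00000167552.14), known for its role in neurons, had the lowest total of the 10 genes, 1597 in 5 transcripts. No transcript dominated it. TUBA1A-207, at 691, and TUBA1A-202, at 622, held 43.2% and 38.9%, and TUBA1A-209, at 267, held 16.7%.

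Among the beta tubulins, TUBB (ENSG00000196230.13, chromosome 6, 30720352 to 30725422) had a total of 41346 and was the only one of the 10 genes with no transcript of another type. TUBB-205 had a mean of 40383, or 97.7%, and the other 3 transcripts lay between 243 and 393. TUBB4B (ENSG00000188229.6, chromosome 9, 137241287 to 137243707) had 2 listed transcripts, TUBB4B-201 at 28153, or 99.1%, and the retained-intron TUBB4B-202 at 269. Both genes had an effective number of transcripts near 1, at 1.05 and 1.02. TUBB6 (ENSG00000176014.13, chromosome 18, 12307669 to 12329826) was more divided, with 10 transcripts and a total of 8293. TUBB6-201 held 80.5% of it, at 6679, and the retained-intron TUBB6-202 held 11.7%, at 972. The remaining 8 transcripts of TUBB6 ranged from 3.73 to 210.

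VIM (ENSG00000026025.16, chromosome 10, 17228241 to 17237593) had 9 transcripts and a total of 80785. VIM-201, at 70838, held 87.7% of the counts, and VIM-209, at 8092, held 10.0%. Both are protein-coding. The processed transcript VIM-205 reached 1293, or 1.60%, and the other 6 transcripts had means between 30.8 and 188. Of the 10 genes, VIM was the only one with a listed antisense gene by symbol, VIM-AS1, a lncRNA gene at 17214239 to 17229985 on chromosome 10. Its 2 transcripts had means of 3113 (VIM-AS1-202) and 58.0 (VIM-AS1-203), together 3.93% of the VIM total. The annotated spans of the genes overlap by 1745 bases. The libraries were made with a stranded kit, but whether strand was used in counting is not given in the sources used here, so reads of VIM and VIM-AS1 from the overlap cannot be told apart.

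LMNA (ENSG00000160789.20, chromosome 1, 156082573 to 156140081) had the most listed transcripts, 19, with a total of 48312. Its counts were spread over several protein-coding transcripts. LMNA-205, at 17439, held 36.1%, LMNA-202, at 10370, held 21.5%, and LMNA-206, at 9407, held 19.5%. The retained-intron LMNA-217, at 5117, was the fourth, with 10.6%. Its effective number of transcripts, 4.35, was second to that of ACTG1. Protein-coding transcripts held 85.2% of the gene total, retained-intron transcripts 10.8% and processed transcripts 3.95%. Of its 19 transcripts, 10 had a mean below 100. Such means were common in the table, where the median over all listed transcripts was 44.2.

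Genes with more listed transcripts tend to have less in their most abundant one, so each gene was set beside all genes with as many listed transcripts. Those genes were of any type and any total, unlike the genes used for the protein-coding share, and were not matched for counts. The most abundant transcript held more than the median of such genes in 7 of the 10. TUBA1B, for example, had 89.4% in 1 transcript, where the 1251 genes with 6 listed transcripts had a median of 52.4% and quartiles of 40.7% and 68.6%. VIM had 87.7%, where the 452 genes with 9 transcripts had a median of 47.2%. The genes below the median were ACTG1 with 30.5% against 45.3% over 98 genes, TUBA1A with 43.2% against 55.6% over 1496 genes, and LMNA with 36.1% against 40.1% over 26 genes. ACTG1 was also below the lower quartile of its class, 33.8%, and TUBA1A just below its own, 43.7%.

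Retained-intron transcripts were listed for 9 of the 10 genes, and how common this was among all listed genes was not counted. Their 41532 counts were 8.10% of the counts of these genes, against 3.57% in the whole table. The whole table includes genes that are not protein-coding. ACTG1-211 alone held 73.9% of them. The median retained-intron transcript of the 10 genes had a mean of 134, beside 22.6 over all 11560 listed retained-intron transcripts. A higher median was not particular to this type. It was 508 against 91.0 for protein-coding transcripts and 256.5 against 26.8 for processed transcripts. For transcripts annotated for nonsense-mediated decay it was lower, 26.4 against 42.1. Of the 19 retained-intron transcripts, 11 had a mean of at least 100. The share of all listed retained-intron transcripts at that level was not computed. Processed transcripts held 16.7% of the counts of the 10 genes, against 3.72% in the whole table, and ACTB-208 accounted for 82160 of the 85372 counts of this type.

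The genes described held 96.2% of the counts of the alpha tubulin family, 91.1% of those of the beta tubulins and nearly all of those of the actins, but a smaller part of those of the intermediate filaments. The intermediate filament list was a choice of 20 genes that leaves out most keratins, and shares within it depend on that choice. ACTB held 60.9% and ACTG1 39.0% of the counts of 7 actin genes. The muscle actin genes ACTA1 and ACTA2 had totals of 16.2 and 31.5, ACTBL2 had 40.4, and ACTC1 and ACTG2 had no listed transcript. TUBA1B held 66.5%, TUBA1C 26.5% and TUBA1A 3.25% of the counts of 9 alpha tubulin genes. TUBA4A was close to TUBA1A, with a total of 1830, and TUBA8 had 26.4. TUBA3C, TUBA3D, TUBA3E and TUBAL3 had no listed transcript. TUBB held 48.2%, TUBB4B 33.2% and TUBB6 9.67% of the counts of 9 beta tubulin genes. TUBB3, a beta tubulin used as a neuronal marker, had a total of 3952, TUBB2A 3547 and TUBB2B 154. TUBB1, the platelet beta tubulin, was listed at 3.96, and TUBB4A and TUBB8 had no listed transcript.

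**Figure D3:**
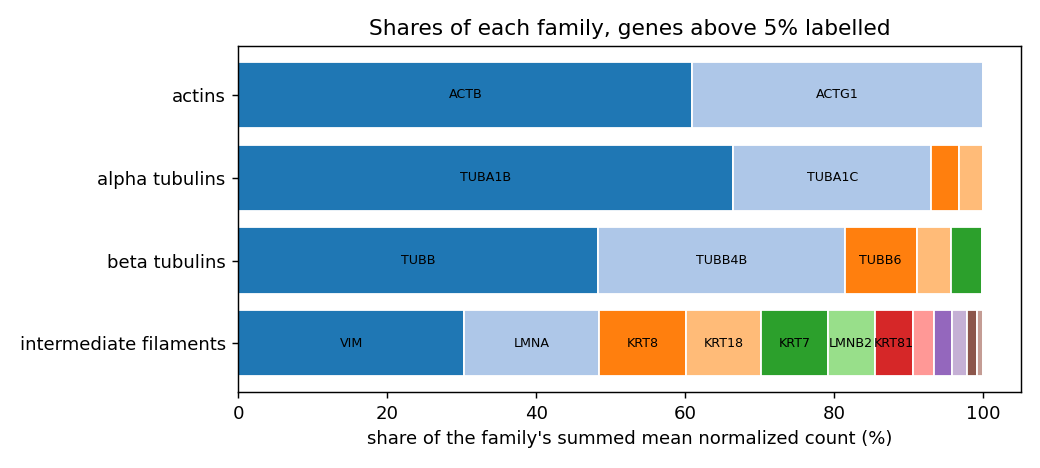
Share of each gene in the summed mean normalized count of its family, in percent, with 1 bar a family and genes above 5% labelled. The 2 actins fill nearly the whole bar, TUBA1B and TUBA1C 66.5% and 26.5% of the alpha tubulins, and VIM and LMNA 48.4% of the 20 intermediate filament genes chosen, which leave out most keratins.

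Among these 20 intermediate filament genes, VIM held 30.3% and LMNA 18.1% of the counts. Keratins came next, KRT8 with a total of 31132, KRT18 with 27123 and KRT7 with 23717, the first and second of these being the partners of simple epithelia. The B-type lamin genes LMNB2 and LMNB1 had totals of 16762 and 3808. Of the 18 genes beside VIM and LMNA, 11 had listed transcripts. KRT86, DES, NEFL, NEFM, NEFH, PRPH and INA had none. KRT81 and KRT86 are near-identical hair keratin genes, so the total of 13822 for KRT81 and the lack of a listed transcript for KRT86 are uncertain. These shares are of reads and not of molecules, since the genes differ in length.

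Reads of the actins and tubulins can fit pseudogenes as well. By symbol, 17 pseudogenes of these genes had listed transcripts, 14 of actins, 1 of alpha tubulins and 2 of beta tubulins. Their means ranged from 6.36 in ACTG1P15 to 100 in ACTBP7. The sum over all 17 was 630, which is 0.123% of the counts of the 10 genes. TUBAP2 had 82.8 and TUBBP10 62.4. No pseudogene of VIM or LMNA was listed under such a symbol. The counts placed on these pseudogenes by the authors' read assignment were thus small beside those of the 10 genes. That division of shared reads is itself uncertain.

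Genes that act on actin and tubulin were examined as chosen lists. All 14 actin regulators had listed transcripts, with totals from 975 to 19026 and a median of 3230. The highest were TMSB10, a thymosin that binds actin monomers, at 19026, PFN1, which loads actin monomers for polymerisation, at 16003, and CFL1, which severs filaments, at 13810. The protein-coding share was 100% in PFN1 and 99.6% in CFL1, beside 45.9% in ACTB, but it was not high in every regulator, with 62.7% in ARPC1B and 14.0% in CAPZA1, which encodes a subunit of the capping protein. TMSB10 had a single listed transcript, and all 3 listed transcripts of PFN1 were protein-coding. The share of both genes was thus fixed by the listing. All 6 genes for tubulin folding and autoregulation were listed too, with totals from 371 to 3565. TBCD had 3565, TBCC 2473 and TBCB 1884, and TTC5, which recognises nascent tubulin to trigger decay of its mRNA, had 371. Among the 4 other tubulins, TUBG1, the gamma tubulin that nucleates microtubules, had a total of 5650, TUBG2 642, TUBD1 98.4 and TUBE1 48.2.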

How the data were processed

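RIP-seq libraries of MDA-MB-231 with tagged YTHDC1 were analysed, 2 IP-YTHDC1 and 2 input libraries grouped by their labels. The authors aligned reads with STAR (2.7.2b) to a transcriptome with GENCODE annotations on GRCh38, estimated transcript reads with RSEM (1.2.31), left out transcripts with few reads, corrected batch effects with RUVSeq and compared groups with DESeq2. Versions are from the submitters' processing notes. The methods word this RIP-seq comparison as one after knockdown of YTHDC1, while the labels give IP and input libraries. The labels were followed, and the mean was taken to cover the 4 labelled libraries, which the table itself does not state. The signal used here is the authors' mean normalized count per transcript over all 4 libraries, as deposited. The same table holds fold changes, their standard errors and p-values of the authors' comparison, none of which were used. A count test planned for values per library was therefore not run, and precision per library is unknown.

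Transcript values were summed by gene identifier, and shares were taken of gene and family totals, with python 3.11.15, numpy 2.4.6 and pandas 2.3.3. These steps were tested on a simulated table. Figures were drawn with matplotlib 3.10.9. Transcripts named were the most abundant of each gene, those with at least 10% of a gene total and the most abundant of each other type. Further transcripts and genes were named after their values were seen, to give ranges. Members and lists were chosen with earlier results of these data known. Symbols of all 10 genes matched a table of gene names by Ensembl identifier, and coordinates are those of RefSeq on GRCh38.p14. Transcript lengths and protein sequences were not used here, so values per length and the planned protein identities were not computed.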

Additional observations from a re-analysis of the deposited data

How the results depend on the processing

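The pooled mean limits what can be tried: settings that need a value per library (other scalings, other filters on counts, leaving out a replicate) or a transcript length were not run. No paired analysis was possible because the values used are means over all 4 libraries. With no replicate spread, a value was taken as moved when it changed at 3 significant digits. Keeping transcripts with a mean of at least 10 gave a summed total of 512458 and a median share of the most abundant transcript of 77.5%, against 512512 and 77.4%. With a mean of at least 100 these were 511569 and 77.9%, the protein-coding share was 73.5%, and the family shares were 61.0% for ACTB, 66.6% for TUBA1B, 48.4% for TUBB and 30.4% for VIM. With protein-coding transcripts alone the summed total was 376361, the median share 84.4%, and the family shares 54.2%, 67.9%, 49.0% and 31.9%. Pseudogenes restricted to transcripts typed as such summed to 579. ACTB and ACTG1 were the 2 genes with a most abundant transcript of another type at both minimum means.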
